A study of Mus musculus with 12 samples.

Results

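Fatty acid oxidation breaks acyl-CoA chains down into acetyl-CoA in mitochondria and, for very long or branched chains, in peroxisomes. The genes described here are 33 chosen by symbol as members of these pathways: the carnitine shuttle, the enzymes of mitochondrial beta-oxidation, the electron transfer proteins behind them, a pair of acyl-CoA thioesterases, peroxisomal oxidation with its membrane transporters, and the peroxins that build peroxisomes. Of the 33, 32 had a probe set that the platform annotation gives to that gene alone, among 18194 genes named in this way, and all 32 were bright enough to be tested, among 13753 genes tested. The muscle-type carnitine palmitoyltransferase gene Cpt1b was listed only on a probe set annotated to several genes and is not analysed here.

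RNA was measured on 12 Affymetrix arrays, 3 for each of 4 groups of mouse cells. White preadipocytes were 3T3-L1 cells, an established white-type preadipocyte line, taken at day 0, which was 2 days after they reached confluence. White adipocytes were the same line at day 10, after 3 days with 1 µg/mL insulin, 1 µM dexamethasone and 0.5 mM IBMX, 2 further days with insulin alone, and then plain growth medium. Brown preadipocytes were undifferentiated brown fat cells, likewise taken at day 0; the labels do not name their line or say how it was made, and the protocol speaks of brown adipocyte lines in the plural. Brown adipocytes were such cells at day 8, after 3 days with 20 nM insulin, 1 nM of the thyroid hormone T3, 1 µM dexamethasone, 125 µM indomethacin and 0.5 mM IBMX, and then with insulin and T3 until harvest. The lines also grew in different sera, so line, medium, inducers and harvest day cannot be told apart in any difference between them. The labels give no genotype and do not say that the 3 arrays of a group came from separate cultures, so p-values measure the spread between these arrays, which may be technical. Each array averages many cells, so fewer cells of a type and less RNA per cell cannot be told apart.

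In mitochondria, a long fatty acid is handed to carnitine by CPT1 at the outer membrane, carried across the inner membrane by SLC25A20 and handed back to coenzyme A by CPT2. A repeated cycle of dehydrogenation, hydration, a further dehydrogenation and thiolytic cleavage then shortens the chain, and its electrons reach ubiquinone through ETF and ETF dehydrogenase. Brown fat burns fatty acids by this route to make heat, whereas white fat mainly stores them as triglyceride. Peroxisomes start the oxidation of very long chains, which enter through transporters of the ABCD family, and the peroxins import matrix enzymes, build the membrane and help the organelle divide.

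Signals are in the arbitrary linear units that were deposited. Group levels are means ± SD with n = 3 arrays, and differences are log2 differences of signal plus 16 with the SE of a limma fit over all 13753 genes. P-values were adjusted over all of these genes by the Benjamini-Hochberg method, and an adjusted p under 0.05 counted as a call. Probe sets differ in brightness for the same amount of RNA, so levels are compared between groups and never between genes. Fat cell markers (Adipoq, Fabp4, Pparg, Lipe, G0s2 and Cidec) had a summed signal of 8505 to 9332 on the white preadipocyte arrays, 127380 to 142530 on the white adipocyte arrays, 49603 to 57958 on the brown preadipocyte arrays and 94979 to 97517 on the brown adipocyte arrays. The 6 brown fat markers (Ucp1, Cidea, Ppargc1a, Dio2, Prdm16 and Elovl3) summed to 10097 to 11041 in brown adipocytes and to at most 1068 in the other groups. Cidea (mean 6754) and Ppargc1a (2472) made up most of the brown adipocyte sum, and Ucp1 stood at 382. Dio2 did not follow, at 39.4 in brown adipocytes against 36.8 to 42.7 in the other groups. Ppargc1a and Prdm16 already stood at 497 and 428 in brown preadipocytes. The 4 preadipocyte markers measured summed to 17550 to 19465 and 7867 to 8958 in white preadipocytes and adipocytes, and to 12213 to 12871 and 596 to 676 in brown ones. Of the 4 endothelial markers, 2 to 4, depending on the group, lay below the 40th percentile on all its arrays. The 5 macrophage markers measured summed to 696 to 1178 over the white arrays and 245 to 320 over the brown ones. Lyz2 made up most of the white sums, at 870 and 492 in white preadipocytes and adipocytes against 46.5 and 15.0 in brown ones. Cd68 went the other way, at 35.1 and 84.3 against 76.0 and 109. Csf1r, Adgre1 and Itgam stood at 97.1 to 127, 40.6 to 45.4 and 5.03 to 17.6 over the groups. The 6 skeletal muscle markers summed to 302 to 1012 over all arrays. The part of these marker levels in the results was not tested. For the beta-actin control, the signal of the 3' over the 5' probe set was 1.40 ± 0.0554 and 1.49 ± 0.0626 in white and brown preadipocytes against 2.25 ± 0.151 and 2.42 ± 0.0478 in the adipocytes, and for Gapdh this ratio lay between 0.775 and 0.861 as group means; the part of this shift in the results was not tested.

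With differentiation of the white line, 30 of the 32 genes rose, Cpt1a fell and Acot1 did not pass. Of all genes tested, 61.3% passed, 30.1% as higher and 31.2% as lower. The arrays of preadipocytes and adipocytes did not overlap for 31 of the 32 genes, all but Acot1, and for 66.1% of all genes. The median change of the 32 genes was 1.57, against 0.021 for all genes, and 24 of them rose at least 2-fold, as 13.3% of all genes did. With differentiation of the brown line, 27 of the 32 rose, Cpt1a and Acot1 fell, and Eci2, Abcd3 and Pex19 did not pass. There, 58.7% of all genes passed, 27.2% as higher and 31.6% as lower. The stages did not overlap for 30 of the 32 genes, all but Eci2 and Pex19, and for 65.2% of all genes. The median change was 1.13, against -0.031 for all genes, and 19 genes rose at least 2-fold, as 9.78% of all genes did. All 27 genes that rose in the brown line also rose in the white line. Scaling the arrays to their hybridization controls in place of the deposited scaling moved the median change of all genes to -0.22 in white and -0.24 in brown cells. On that scale 28 of the 32 genes were called higher in white cells and 26 in brown cells, with Pex5 lost in both lines and Abcd3 in the white line.

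**Figure D1:**
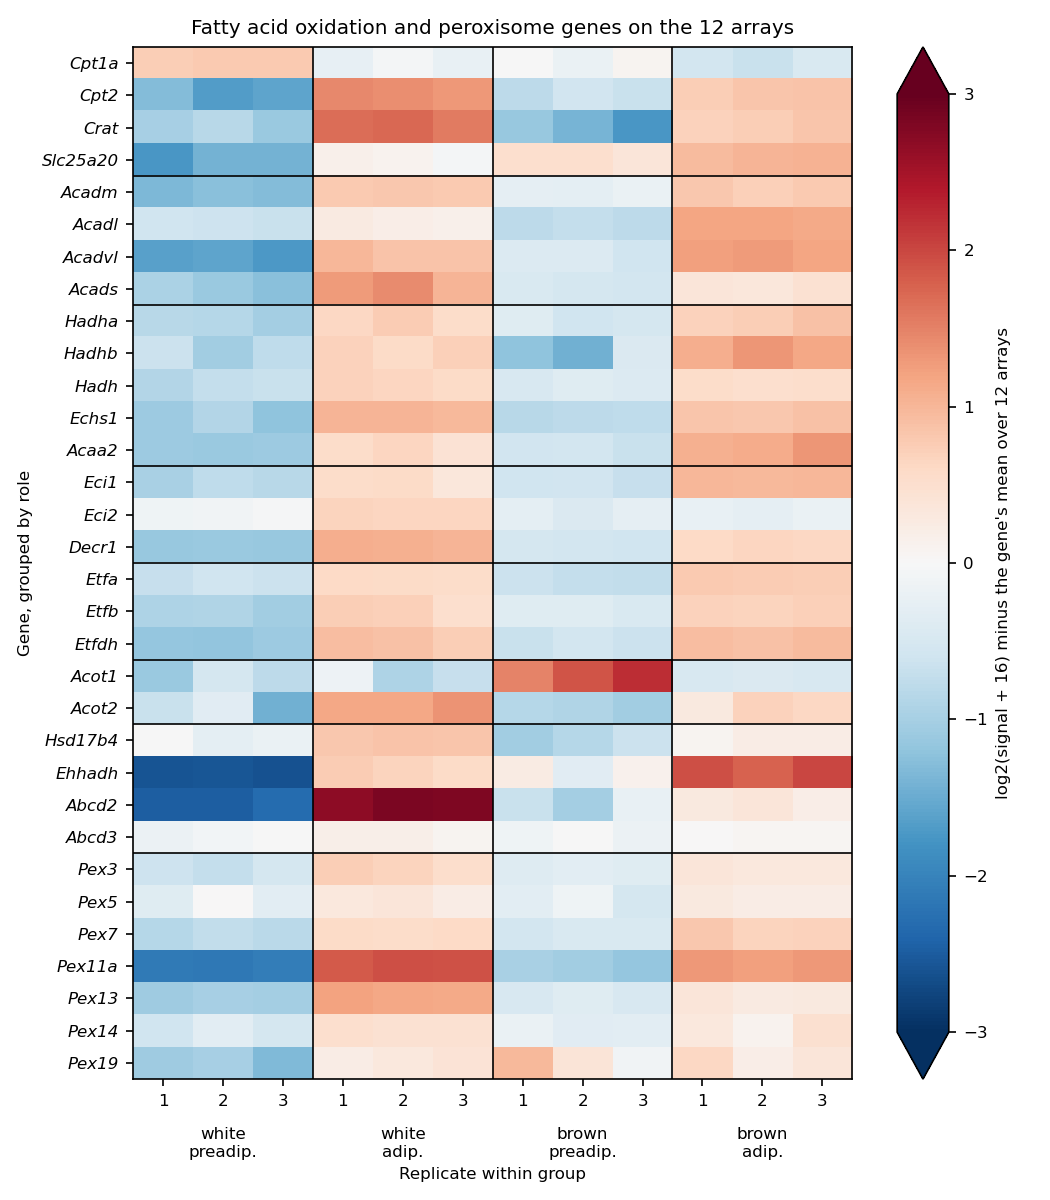
Each row is a gene, grouped by role, and each column an array (3 replicates in each of 4 groups); colour gives log2(signal + 16) minus that gene's mean over the 12 arrays, with values past 3 in either direction drawn in the end colours. Most rows turn from blue to red between preadipocytes and adipocytes of both lines, while Cpt1a runs the other way, Acot1 is red only on the brown preadipocyte arrays and Abcd2 is darkest red on the white adipocyte arrays.

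Of the 4 carnitine shuttle genes measured, 3 rose and Cpt1a fell in both lines. Cpt1b, the muscle-type gene for the first enzyme, was not measured, so the change of that step as a whole is not known. Cpt1a, the liver-type isoform of the first and rate-limiting enzyme, had signals of 1584, 1625 and 1636 on the 3 white preadipocyte arrays and 789.7, 895 and 803 on the white adipocyte arrays. In the brown line they were 922, 811 and 999 before and 639, 582 and 673 after differentiation. White preadipocytes stood highest and brown adipocytes lowest, and the arrays of a line did not overlap between the stages. Cpt1a fell by 0.95 on the log2 scale in white cells (SE 0.0889, adjusted p = 5.23e-06) and fell by 0.51 in brown cells (SE 0.0889, adjusted p = 0.000573). With the mean of its 3 probe sets in place of the brightest, the brown fall was 0.40 and did not pass (adjusted p = 0.185).

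Cpt2, the inner membrane enzyme that completes the transfer, rose in both lines. Its signals were 668, 511 and 551 in white preadipocytes and 4596, 4432 and 4115 in white adipocytes, a shift of 2.90 log2 units (SE 0.102, adjusted p = 3.53e-09). The brown arrays gave 959.9, 1121 and 1052 before and 2786, 2965 and 3031 after, a change of 1.48 (SE 0.102, adjusted p = 6.71e-07). The 4 groups did not overlap, and their order was white preadipocytes, brown preadipocytes, brown adipocytes and white adipocytes. Slc25a20, the carnitine-acylcarnitine carrier, followed another order. Its signals were 643, 809 and 808 in white preadipocytes, 2437, 2368 and 2101 in white adipocytes, 3104, 3103 and 2805 in brown preadipocytes and 4263, 4424 and 4527 in brown adipocytes. Brown cells that had not been induced thus exceeded differentiated white cells on every array. Crat, which moves short acyl groups between carnitine and coenzyme A, rose from 419 ± 40.7 to 2667 ± 143 in white cells and from 308 ± 67.0 to 1433 ± 70.8 in brown cells, by 2.63 and 2.18 on the log2 scale.

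The acyl-CoA dehydrogenases open each cycle, and each enzyme prefers a range of chain length. All 4 rose in both lines. Acadm, for medium chains, had signals of 5306, 5642 and 5481 in white preadipocytes and 23129.6, 23507 and 23387 in white adipocytes. In brown cells it had 11227, 11112 and 11703 before and 23680.3, 22081 and 23275 after differentiation. The preadipocytes of the lines did not overlap and differed by 1.05 (SE 0.0549, adjusted p = 1.37e-07). The adipocyte arrays overlapped, and their difference of -0.021 did not pass (95% interval -0.14 to 0.10). Quantile normalization of the arrays turned that last difference to 0.23, with brown adipocytes higher (adjusted p = 0.00974).

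Acadl, for long chains, had another order. Its signals were 5947, 5791 and 5673 in white and 5233, 5497 and 5162 in brown preadipocytes, a difference of -0.13 that did not pass (adjusted p = 0.073). They were 10868, 10382 and 10007 in white adipocytes and 20293, 20537 and 19799 in brown adipocytes. The brown adipocyte arrays stood above all others, and the brown level was 0.96 log2 units over the white one (SE 0.0564, adjusted p = 2.06e-07). White cells rose by 0.84 and brown cells by 1.93, so that the brown rise was the larger by 1.09 (SE 0.0798, adjusted p = 1.93e-06).

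Acadvl, for very long chains, rose from 1376 ± 68.9 to 8136 ± 446 in white cells and from 3133 ± 229 to 10244 ± 317 in brown cells. Its level was higher in the brown line at both stages, by 1.18 in preadipocytes and 0.33 in adipocytes (adjusted p = 0.00283). Acads, for short chains, rose from 988 ± 106 to 5098 ± 688 in white cells and from 1485 ± 53.9 to 2799 ± 116 in brown cells. It was higher in brown than in white preadipocytes, by 0.58, and lower in brown than in white adipocytes, with a brown minus white difference of -0.85 (SE 0.107, adjusted p = 5.53e-05). The enzymes for long and for short chains thus had opposite differences between the adipocytes of the lines.

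Promoter windows, from 250 bases before to 50 bases after the annotated start, were taken from RefSeq (GRCm38.p6) for 26 of the 32 genes, 29 windows in all. The hexamer AGGTCA, which many nuclear receptors bind, occurred on either strand in windows of 4 genes, Acadm, Acadvl, Echs1 and Cpt1a, that is in 4 of 29 windows, against 16.3% of 32851 RefSeq promoter windows of the same length. The longer form AAGGTCA, which contains it, was in the Acadm window alone, against 4.72% of all windows. The still longer form TCAAGGTCA (0.423% of all windows) was in none of the 29, and neither was AGGTCA repeated in the same direction with 1 base of any kind between the copies (0.0396%). A match is only a run of letters. The windows of Acadm, which rose, and of Cpt1a, which fell, are shown because the same hexamer lies in both. Capitals mark the match, in Acadm that of the longer form, which reads as the reverse complement in each and begins 249 bases before the start in Acadm (chr3:153944594-153944893, minus strand) and 94 bases before it in Cpt1a (chr19:3323051-3323350, plus strand).
Acadm: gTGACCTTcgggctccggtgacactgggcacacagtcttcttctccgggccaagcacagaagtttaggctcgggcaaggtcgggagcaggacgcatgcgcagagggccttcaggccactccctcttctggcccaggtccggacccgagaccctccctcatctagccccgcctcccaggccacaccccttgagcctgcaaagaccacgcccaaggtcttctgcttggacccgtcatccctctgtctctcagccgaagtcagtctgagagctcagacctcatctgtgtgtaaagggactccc
Cpt1a: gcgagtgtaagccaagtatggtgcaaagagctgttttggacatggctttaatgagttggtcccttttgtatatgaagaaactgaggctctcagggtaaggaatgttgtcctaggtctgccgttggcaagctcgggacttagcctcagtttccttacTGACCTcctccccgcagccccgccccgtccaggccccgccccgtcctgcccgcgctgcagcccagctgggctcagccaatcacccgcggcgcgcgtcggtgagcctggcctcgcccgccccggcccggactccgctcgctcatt

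The later steps of the cycle rose in both lines for all 5 genes measured. Hadha and Hadhb encode the subunits of the mitochondrial trifunctional protein, which carries out hydration, the second dehydrogenation and thiolysis of long chains. Hadha rose from 787 ± 59.2 to 2319 ± 176 in white cells and from 1048 ± 83.6 to 2542 ± 171 in brown cells, by 1.54 and 1.27. Hadhb rose by 1.49 (SE 0.222, adjusted p = 0.000175) and 2.22 (SE 0.222, adjusted p = 1.09e-05). Its brown preadipocyte arrays were spread wide, at 3355, 2860.0 and 5798, against 16563, 19432 and 17569 in brown adipocytes. The Hadhb difference between white and brown adipocytes did not pass (0.53, adjusted p = 0.0638), but passed, always higher in brown cells, under several other settings. These were a pseudocount of 64, quantile normalization, scaling to hybridization controls, the 60th percentile filter, the mean of probe sets, the less specific probe sets left out, an intensity trend and a fit of only the arrays compared (adjusted p from 0.000123 to 0.0438). It also passed without brown preadipocyte replicate 2 (adjusted p = 0.0365) or replicate 3 (0.00352). Without replicate 3, brown preadipocytes were lower than white ones (-0.50, adjusted p = 0.00971), and the rise was larger in brown cells by 1.03 (adjusted p = 0.00107). Another probe set, of more specific design, was higher in brown cells at both stages, by 0.42 in preadipocytes and 0.56 in adipocytes, so the preadipocyte direction depends on the probe set.

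The annotated starts of these subunit genes lie head to head on chromosome 5, 273 bases apart, so that their promoter windows share 228 bases. The Hadha window (chr5:30154931-30155230, minus strand) is shown because it holds most of the stretch between the starts. The Hadhb start, at chr5:30155253, lies just beyond it. Capitals mark the bases that also lie in the Hadhb window.
Hadha: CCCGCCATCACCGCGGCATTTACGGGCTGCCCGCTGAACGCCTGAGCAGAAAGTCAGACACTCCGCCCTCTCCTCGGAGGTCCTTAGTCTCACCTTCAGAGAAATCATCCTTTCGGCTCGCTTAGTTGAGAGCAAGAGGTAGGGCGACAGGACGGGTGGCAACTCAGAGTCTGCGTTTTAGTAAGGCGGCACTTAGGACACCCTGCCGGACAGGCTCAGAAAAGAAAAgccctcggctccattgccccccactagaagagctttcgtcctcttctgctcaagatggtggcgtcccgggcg

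Echs1, the short-chain hydratase, rose from 2914 ± 334 to 12153 ± 246 in white and from 3489 ± 84.5 to 10892 ± 270.0 in brown cells. Hadh, the dehydrogenase for short and medium chains, rose by 1.39 in white and by 0.94 in brown cells. Acaa2, the thiolase of the matrix, rose by 1.64 and 1.76, and the difference between these changes was 0.12 with a 95% interval of -0.13 to 0.38. Acaa2 was higher in the brown line both before (0.50, SE 0.0821, adjusted p = 0.000453) and after differentiation (0.63, SE 0.0821, adjusted p = 7.53e-05). All 3 of its probe sets gave the same calls.

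Unsaturated chains need isomerases and a reductase before they can pass the cycle. Eci1, a mitochondrial isomerase, rose by 1.34 in white and 1.62 in brown cells. Eci2, an isomerase found in mitochondria and peroxisomes, separated the lines. Its signals were 3387, 3462 and 3631 in white preadipocytes and 5883, 5797 and 5795 in white adipocytes, a shift of 0.74 log2 units (SE 0.0617, adjusted p = 2.25e-06). The brown arrays gave 3025, 2746 and 3085 before and 3154, 3062 and 3231 after differentiation. These brown arrays overlapped, and the brown change of 0.094 did not pass (adjusted p = 0.218, 95% interval -0.044 to 0.23). White adipocytes thus exceeded brown adipocytes in Eci2, with a brown minus white difference of -0.88 (SE 0.0617, adjusted p = 6.81e-07). Decr1, the mitochondrial dienoyl-CoA reductase, rose by 2.19 in white and 1.17 in brown cells. Its brightest probe set was lower in brown than in white adipocytes (-0.45), whereas its dimmer probe set was higher there by 0.56, so the direction between adipocytes depends on the probe set.

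All 3 electron transfer genes rose in both lines. Etfa and Etfb, the subunits of the electron transfer flavoprotein, rose by 1.22 and 1.60 in white cells and by 1.47 and 1.09 in brown cells. Etfdh, the dehydrogenase that passes electrons on to ubiquinone, rose from 1667 ± 56.9 to 6716 ± 470.4 in white and from 2424 ± 116 to 7061 ± 189 in brown cells. In adipocytes, Etfb differed between the lines by 0.048 (95% interval -0.12 to 0.21) and Etfdh by 0.074 (95% interval -0.079 to 0.23), and neither passed. Etfa was higher in brown adipocytes by 0.19 (adjusted p = 0.0142). Under quantile normalization Etfb and Etfdh passed as well, both higher in brown adipocytes, by 0.21 each.

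The site of the factor NRF1, searched on both strands as GCGCA and GCGC with 1 base of any kind between them, was in the windows of Etfb, Etfdh and Abcd3, that is in 3 of 29 windows, against 4.6% of all RefSeq windows. The windows of both electron transfer genes are shown with the match in capitals. It begins 128 bases before the start in Etfdh (chr3:79628718-79629017, minus strand), where it reads the same on both strands, and 11 bases before it in Etfb (chr7:43443822-43444121, plus strand). A match says only that these letters are present.
Etfdh: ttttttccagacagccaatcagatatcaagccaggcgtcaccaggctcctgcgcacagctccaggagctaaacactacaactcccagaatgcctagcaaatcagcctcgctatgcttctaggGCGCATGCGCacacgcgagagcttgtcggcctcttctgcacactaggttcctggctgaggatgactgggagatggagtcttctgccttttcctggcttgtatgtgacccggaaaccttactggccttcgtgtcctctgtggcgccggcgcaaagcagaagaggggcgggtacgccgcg
Etfb: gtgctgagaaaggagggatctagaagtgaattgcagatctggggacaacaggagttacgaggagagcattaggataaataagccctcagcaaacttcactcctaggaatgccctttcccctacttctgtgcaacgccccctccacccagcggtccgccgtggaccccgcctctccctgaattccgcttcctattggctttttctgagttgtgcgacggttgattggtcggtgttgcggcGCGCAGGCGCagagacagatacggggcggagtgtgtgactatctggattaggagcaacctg

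The acyl-CoA thioesterases release free fatty acids from coenzyme A. Acot1, the cytosolic form, and Acot2, the mitochondrial form, are close relatives that lie next to each other on chromosome 12, their annotated starts 21641 bases apart. Acot1 was high in brown preadipocytes alone. Its signals there were 296, 393 and 494, against 63.5, 66.2 and 63.4 in brown adipocytes, a shift of -2.32 log2 units (SE 0.230, adjusted p = 1.01e-05). In white cells they were 34.8, 61.1 and 48.7 before and 83.5, 42.4 and 52.7 after, where the 40th percentile of the arrays lay at 32.9 to 41.2. These white arrays overlapped, and the change did not pass (0.22, adjusted p = 0.445).

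Acot2 went the other way. Its signals were 684, 865 and 397 in white preadipocytes and 2489.8, 2468 and 2847 in white adipocytes, and 599, 579 and 529 in brown preadipocytes and 1364, 1798 and 1695 in brown adipocytes. Acot2 rose by 2.04 in white cells (SE 0.232, adjusted p = 2.28e-05) and by 1.47 in brown cells (SE 0.232, adjusted p = 0.000299). The brown minus white difference in adipocytes was -0.69 (adjusted p = 0.0263), a call lost without white adipocyte replicate 3 (adjusted p = 0.0788) or brown adipocyte replicate 1 (0.0922). Near-identical stretches of these genes could share signal, and a further probe set annotated to both was left out.

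**Figure D2:**
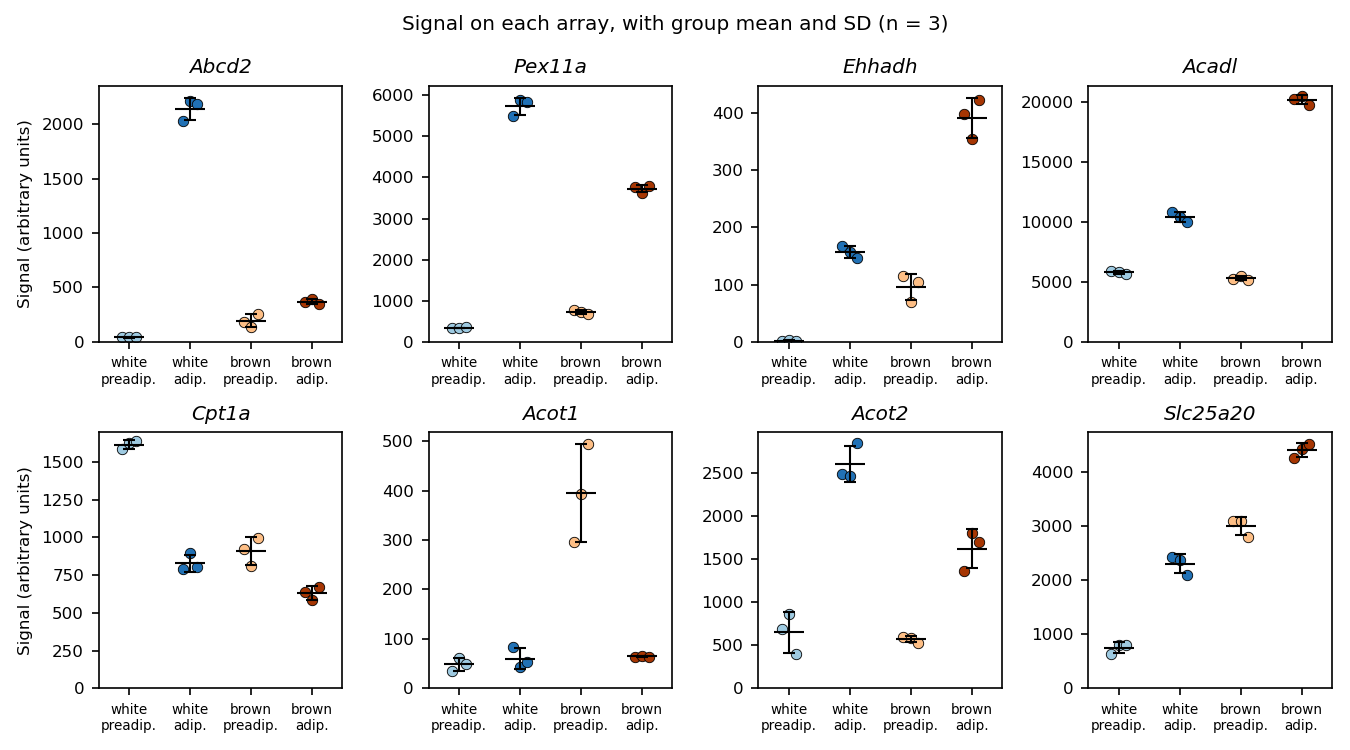
Signal in linear units on each array for 8 genes, with points for the 3 arrays of a group, a horizontal mark for the mean and bars for the SD; each panel has its own axis from 0. Abcd2 stands at 2140 in white adipocytes against 369 in brown adipocytes, Acadl at 10419 against 20210, and Acot1 at 395 in brown preadipocytes against 48.2 to 64.4 in the other groups.

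Abcd2 showed the largest change in the white line with the brightest probe set standing for each gene. Only genes whose signal was above the 40th percentile on all arrays of both stages were ranked. Abcd2 encodes a transporter of very long and polyunsaturated acyl-CoA into peroxisomes. Its signals were 40.5, 41.3 and 47.9 in white preadipocytes and 2025, 2213 and 2181 in white adipocytes, a shift of 5.19 log2 units (SE 0.164, adjusted p = 1.72e-09). On the brown arrays they were 183, 141 and 256 before and 369, 391 and 346 after differentiation, a change of 0.91 (SE 0.164, adjusted p = 0.000731). The brown change minus the white change was -4.27 (SE 0.232, adjusted p = 2.48e-07). All 4 probe sets of Abcd2 rose in white cells, by 5.19, 4.37, 3.18 and 1.78, and were lower in brown than in white adipocytes. The brown rise passed with 2 of the 4. The white preadipocyte signals lay close to the 40th percentile there (32.9 to 34.3), and the fitted white change ran from 3.63 to 5.60 over the settings. With the mean of a gene's probe sets, Abcd2 (3.63) no longer exceeded Pex11a (3.73). Abcd3, the main transporter of this family in many tissues, stood between 3904 and 4652 in all groups. Its white change of 0.24 (adjusted p = 0.0119) did not pass with the mean of its probe sets (adjusted p = 0.827), and scaling to hybridization controls turned it to -0.036 (adjusted p = 0.764). The other Abcd3 probe set in that mean was too dim to be tested by itself, with group means of 9.44 to 35.0.

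Ehhadh, the peroxisomal bifunctional enzyme of the L-hydroxy route, had signals of 2.10, 2.51 and 1.92 in white preadipocytes, all below the 40th percentile of the arrays there (32.9 to 34.3). In white adipocytes they were 168, 158 and 146. With the percentile standing in for the unmeasured white preadipocyte signal, the fold between the group means of log2 signal was at least 4.69. The fitted white change is set by the pseudocount (5.64 with 1, 3.25 with 16 and 1.74 with 64) and is no measured size. In brown cells they were 114, 70.4 and 104 before and 398, 354 and 422 after differentiation, a shift of 1.88 log2 units (SE 0.137, adjusted p = 1.02e-06). Brown adipocytes exceeded white adipocytes on every array, by 1.23 (SE 0.137, adjusted p = 2.28e-05), and the group mean of brown preadipocytes was, by the same bound, at least 2.82-fold that of white preadipocytes. Hsd17b4, the bifunctional enzyme of the D-hydroxy route, had the opposite order between lines. It rose from 2427 ± 260.2 to 4837 ± 86.8 in white and from 1515 ± 208 to 3074 ± 163 in brown cells, and was lower in brown cells at both stages, with log2 differences of -0.68 and -0.65 (adjusted p = 0.00035 and 0.000366).

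The peroxins rose in 7 of 7 cases in white cells and in 6 of 7 in brown cells, against 30.1% and 27.2% of all genes tested. Pex11a, which elongates peroxisomes before they divide, had signals of 337, 335 and 349 in white preadipocytes and 5498, 5882 and 5832 in white adipocytes, a shift of 4.01 log2 units (SE 0.0636, adjusted p = 2.59e-11). Signals of brown cells were 772, 737 and 676 and 3763, 3633 and 3799, a change of 2.33 (SE 0.0636, adjusted p = 1.26e-09), the largest rise of the 32 genes in that line. The brown arrays lay above the white ones before differentiation and below them after it. Its second probe set gave rises of 3.45 and 2.31.

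Pex13, a membrane protein of the import pore, had signals of 1909, 2005 and 1981 and 9285, 9086 and 8948 in white cells and 2914, 3123 and 2913 and 5167, 4839 and 4983 in brown cells. It rose by 2.20 in white and 0.74 in brown cells, and the difference of -1.46 passed (SE 0.0796, adjusted p = 2.52e-07). Pex14, which docks the cargo receptors at that pore, rose by 0.95 and 0.57. Pex5 and Pex7 are the cargo receptors themselves. Pex5 rose by 0.52 and 0.57, which did not pass in either line when arrays were scaled to hybridization controls (adjusted p = 0.156 and 0.0691). Its dimmer probe set rose by 0.26 in white cells, and its brown change of -0.0078 did not pass (adjusted p = 0.957). That probe set was lower in brown than in white adipocytes (-0.37), where the brightest gave -0.054 and did not pass. Pex7 rose by 1.37 and 1.20, with a difference between the lines of -0.17 (95% interval -0.36 to 0.027).

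Pex3 and Pex19 insert membrane proteins into peroxisomes. Pex3 rose by 1.26 in white and 0.70 in brown cells. Pex19 had signals of 295, 309 and 240.1 in white preadipocytes and 736, 791 and 849.7 in white adipocytes, a shift of 1.45 log2 units (SE 0.233, adjusted p = 0.000303). The brown arrays gave 1248, 824 and 583 before and 983, 720.0 and 819 after, so the stages overlapped and the change of -0.017 did not pass (adjusted p = 0.96). Of its other probe sets, the brighter gave the same calls (brown change 0.25, adjusted p = 0.306; adipocyte difference 0.14, adjusted p = 0.57). The dimmest rose in brown cells by 0.58, from 405 to 617, and was 2.22 higher in brown than in white adipocytes, where the brightest probe set gave 0.075.

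**Figure D3:**
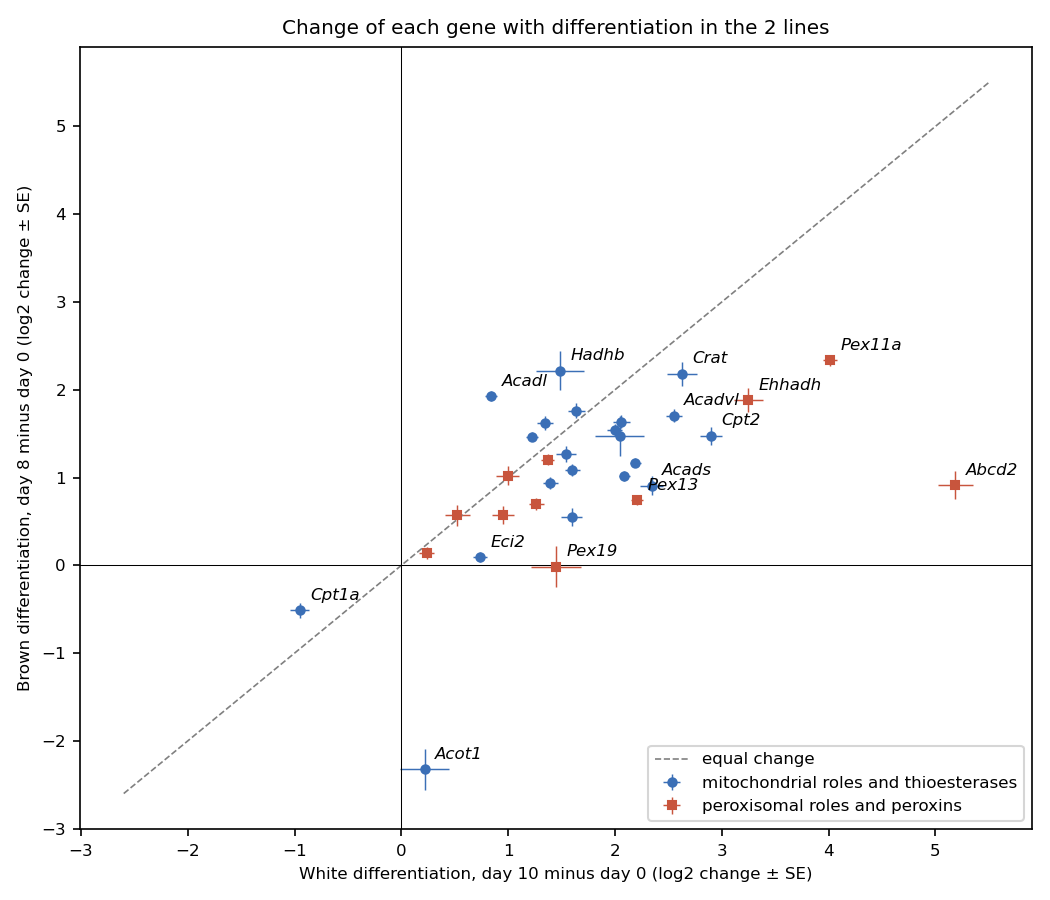
Log2 change with differentiation in the white line (horizontal axis) and in the brown line (vertical axis) for each of the 32 genes, with SE bars; circles are mitochondrial genes and thioesterases, squares peroxisomal genes and peroxins, and the dashed line marks equal change. The Ehhadh point is drawn at a pseudocount of 16, which sets its horizontal place. Abcd2 lies far to the right at 5.19 and 0.91, Acadl above the line at 0.84 and 1.93, and Acot1 alone near the bottom at 0.22 and -2.32.

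The changes of the lines were compared directly as the difference between the brown and the white change. It passed for 22 of the 32 genes, against 51.1% of all genes tested. It was negative, meaning a change less upward in brown cells, for 19 of them, against 27.5% of all genes, and positive for 3, against 23.6%. Acadl alone had a positive difference of at least 2-fold, as 9.93% of all genes did. The median difference was -0.49, against -0.052 for all genes. Cpt1a, Acadl and Etfa were the 3 positive genes. For Cpt1a, which fell in both lines, the positive difference of 0.44 means a smaller fall in brown cells. The Etfa difference of 0.24 (adjusted p = 0.026) was lost without white preadipocyte replicate 2 (0.0614), white adipocyte replicate 3 (0.0515), brown preadipocyte replicate 2 (0.0556) or brown adipocyte replicate 1 (0.0569). Among the 19, Pex14 (-0.38, adjusted p = 0.0481) was lost in 10 of the 12 fits that left out an array, all but those without white preadipocyte replicate 2 and brown adipocyte replicate 3, with adjusted p up to 0.106. Ehhadh was lost with a pseudocount of 64 (log2 difference -0.22, adjusted p = 0.215). With the mean of a gene's probe sets, the calls of Cpt1a (0.79, adjusted p = 0.0835), Hadh (adjusted p = 0.183) and Decr1 (adjusted p = 0.0637) were lost, and that of Etfdh turned to 0.12 and was lost (adjusted p = 0.738). The only other Etfdh probe set in that mean was too dim to be tested by itself, with group means of 6.0 to 34.6. Hsd17b4 was not called (0.025, adjusted p = 0.909), but its other probe set gave -0.50. Crat (-0.445) and Acot2 (-0.57) were not called either, but a further probe set of each passed, at -0.74 and -0.78. The dimmest Crat probe set gave 0.15 and did not pass. With the mean of a gene's probe sets, Crat (-0.35, adjusted p = 0.0354) and Acot2 (-0.68, adjusted p = 0.0252) were called.

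Before induction, the brown line already had more of most of these transcripts. Of the 32 genes, 21 were higher in brown than in white preadipocytes, 4 were lower and 7 did not pass. Over all genes tested, 55.1% passed, 31.3% as higher and 23.8% as lower. The lines did not overlap for 26 of the 32 genes and for 62.0% of all genes. The median difference was 0.37, against 0.072 for all genes. The 4 genes lower in brown preadipocytes were Cpt1a (-0.82), Hsd17b4 (-0.68), Crat (-0.44) and Eci2 (-0.24). The Crat call was lost without white preadipocyte replicate 2 (adjusted p = 0.0697), and both Crat and Eci2 were lost with scaling to hybridization controls (adjusted p = 0.107 and 0.195). Among genes above the 40th percentile in both groups, Acot1, Slc25a20 and Abcd2 had the largest differences, with log2 values of 2.67, 1.98 and 1.79. Ehhadh was below the percentile in white preadipocytes, and its fitted difference ran from 1.26 with a pseudocount of 64 to 4.91 with 1. The calls of Eci1 (0.23) and Echs1 (0.26) were not firm either. Eci1 was lost without white preadipocyte replicate 1 (adjusted p = 0.121) or replicate 3 (0.058), and without brown preadipocyte replicate 1 (0.0845) or replicate 2 (0.098). Echs1 was lost without white preadipocyte replicate 3 (0.0588). A fit of only the arrays compared lost Eci1, Echs1 and Crat (adjusted p = 0.0619, 0.0695 and 0.0738). With the mean of its probe sets, which takes in one too dim to be tested by itself, the Etfdh call was lost (0.21, adjusted p = 0.376). The summed fat cell markers were likewise higher in brown than in white preadipocytes (49603 to 57958 against 8505 to 9332), and their part in this difference was not tested.

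After differentiation, the lines differed in both directions. Of the 32 genes, 7 were higher and 12 lower in brown than in white adipocytes, and 13 did not pass, where 59.7% of all genes tested passed, 30.1% as higher and 29.5% as lower. The lines did not overlap for 24 of the 32 genes and for 65.6% of all genes. The median difference was -0.083, against 0.0016 for all genes. The 7 higher genes were Slc25a20, Acadl, Acadvl, Acaa2, Eci1, Etfa and Ehhadh. All but Ehhadh serve mitochondrial oxidation, and Ehhadh and Acadl had the largest differences, 1.23 and 0.96. The 12 lower genes were Cpt1a, Cpt2, Crat, Acads, Eci2, Decr1, Acot2, Hsd17b4, Abcd2, Pex3, Pex11a and Pex13. Of the 11 peroxisomal genes, 1 was higher and 5 were lower in brown adipocytes, and of the 21 mitochondrial genes and thioesterases 6 were higher and 7 lower. Quantile normalization gave 11 higher and 12 lower genes. Scaling to hybridization controls gave 9 and 9, with the calls of Cpt1a, Acot2 and Pex3 lost (adjusted p = 0.077, 0.0787 and 0.0904). Cpt1a was also lost with the mean of its probe sets (-0.12, adjusted p = 0.707), and neither of its other probe sets passed (-0.086 and 0.12). From preadipocytes to adipocytes, 7 genes turned from higher in the brown line to lower, 5 stayed higher and 4 stayed lower.

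**Figure D4:**
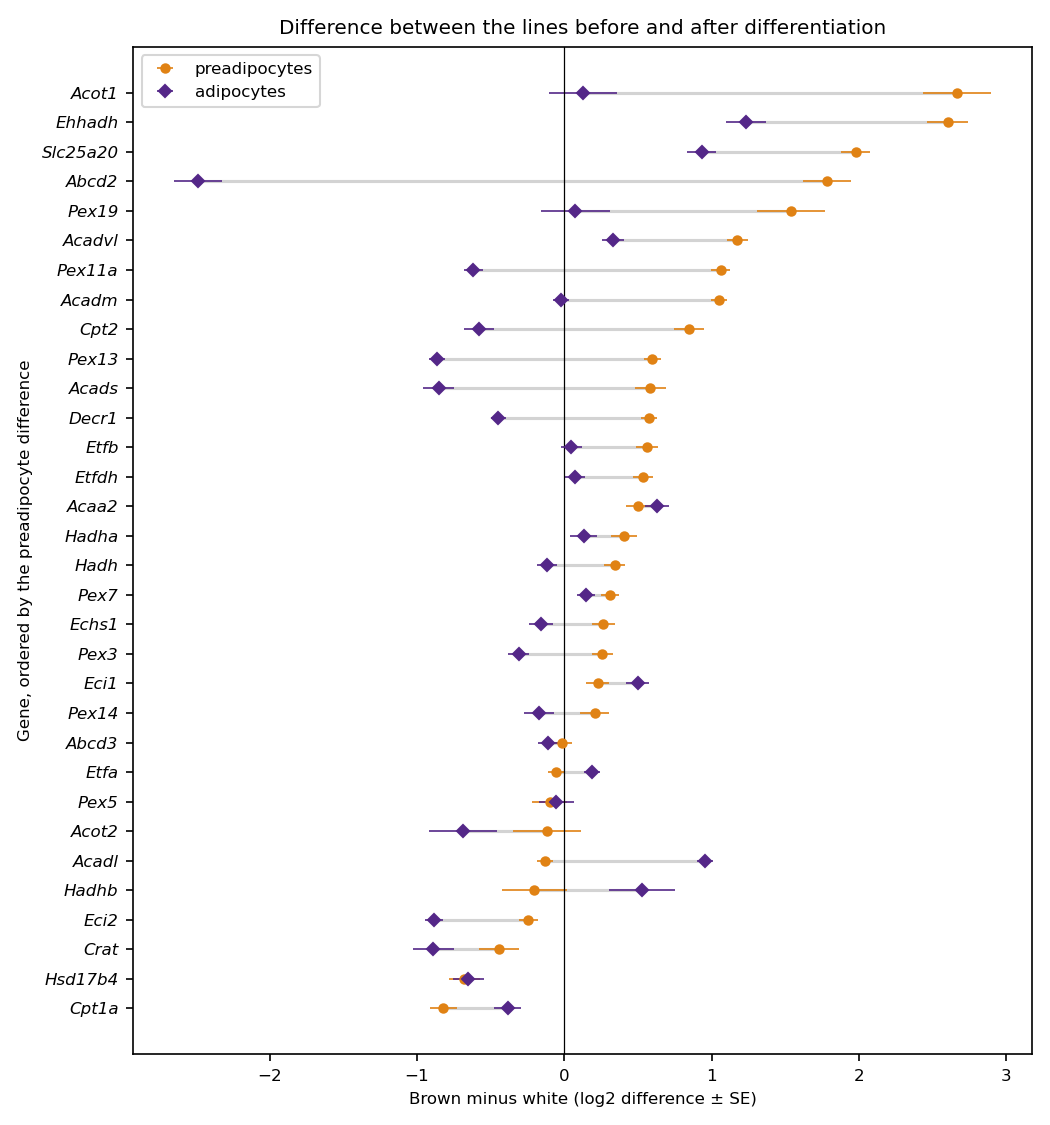
Brown minus white log2 difference of each gene, with SE bars, in preadipocytes (circles) and adipocytes (diamonds), joined by a grey line and ordered by the preadipocyte difference. The Ehhadh circle depends on the pseudocount, since its white preadipocyte signal lies below the 40th percentile. Most circles lie right of 0 (21 of 32 called higher), and the diamonds lie on both sides of it (7 called higher and 12 lower), with Abcd2 moving from 1.79 to -2.49 and Acadl from -0.13 to 0.96.

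Genes of the same pathways outside the 33 were read from 3 further lists. Of 15 other mitochondrial oxidation genes, 13 rose and 2 fell in white cells, and 12 rose, 1 fell and 2 did not pass in brown cells. Over all genes tested, 30.1% rose and 31.2% fell in white cells, and 27.2% rose and 31.6% fell in brown cells. Acacb, whose product makes the malonyl-CoA that inhibits CPT1, rose from 78.2 ± 9.02 to 283 ± 44.3 in white and from 87.9 ± 23.4 to 2209.8 ± 33.5 in brown cells. The brown rise of 4.45 exceeded the white rise of 1.66 by 2.79 (SE 0.232, adjusted p = 4.74e-06). Acad11, a further acyl-CoA dehydrogenase, rose by 3.09 and 1.87. Cpt1c, the brain-type relative of Cpt1a, named after its values were seen, fell by 2.04 in white cells and fell by 3.02 in brown cells.

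Of 20 other peroxisomal oxidation genes tested, from 25 listed, 16 rose and 4 did not pass in white cells, and 14 rose, 3 fell and 3 did not pass in brown cells. The shares over all genes were 30.1% higher and 31.2% lower in white cells, and 27.2% and 31.6% in brown cells. Acox2, an oxidase of branched chains and bile acid precursors, was below the 40th percentile on the preadipocyte arrays of both lines (4.93 ± 0.605 and 10.5 ± 7.07). It reached 1102 ± 227 in white adipocytes and 486 ± 9.23 in brown adipocytes. By the bound used for Ehhadh, the fold between group means was at least 32.5 in white and at least 12.4 in brown cells. Acaa1b, a peroxisomal thiolase, rose from 32.9 ± 27.7 to 839.6 ± 163 in white and from 649 ± 26.8 to 9892 ± 1099 in brown cells, and was higher in brown adipocytes by 3.55 (SE 0.420, adjusted p = 3.61e-05). Its near-identical relative Acaa1a could share its signal. Of 7 other peroxins tested, from 10 listed, 6 rose in each line, against the same shares over all genes. Pex16 rose by 3.23 in white and 0.88 in brown cells, and Pex11g by 2.70 and 0.63. Their brown minus white differences in adipocytes were -1.14 and -1.35. The difference between lines in the change was negative for 12 of the 20 peroxisomal genes, 3 of the 7 peroxins and 6 of the 15 mitochondrial genes, and positive for 2, 1 and 3 of them, against 27.5% negative and 23.6% positive over all genes tested.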

How the data were processed

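The deposited values were linear signal intensities of 45101 probe sets on 12 arrays. The submitters' processing notes name Affymetrix Expression Console; which version and algorithm were run is not given in the sources used here. The mean of each array after trimming 2% at each end was 500.003 to 500.004, so the authors' scaling hides a change in total RNA per cell. Of the probe sets, 34958 carried 1 gene symbol and 932 several. The brightest single-symbol probe set stood for a gene. Genes were tested if their signal exceeded the array's 40th percentile on at least 3 arrays. Differences of log2(signal + 16) were fitted in R 4.3.3 with limma 3.58.1 (4 group means, eBayes, two-sided p, Benjamini-Hochberg adjustment over 13753 genes). Array number limits the precision. In a simulation of white differentiation, 200 of 13753 genes, all above a set brightness, were changed, with noise drawn from a normal distribution. Of the genes changed by a log2 value of 1, 80.6% were recovered, and of those changed by 0.5, 43.3%. In the data far more genes passed (61.3%), and the adjusted threshold depends on that share. The simulated shares therefore do not give the recovery rate in the data. Pearson correlations of log2 signal were 0.978 to 0.982 within groups and 0.885 to 0.935 between groups. All members were named, and 2 genes of each further list with the largest called change. Members and lists were chosen with earlier results of these data known. The planned Cpt1b to Cpt1a ratio was not computed, since Cpt1b had no probe set of its own. Promoter sequences are RefSeq's (GRCm38.p6). Alternatives were pseudocounts of 1 and 64, quantile normalization, scaling to 9 hybridization controls, a 60th percentile filter or none, an intensity trend, averaging a gene's probe sets or dropping the less specific ones, fits of only the arrays compared, a replicate block, an adjusted p under 0.01, and each array left out in turn. Python 3.11.15 made tables and plots.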

Additional observations from a re-analysis of the deposited data

Results flagged for a closer look

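The change with differentiation differed between the lines, by the test of that difference (limma, adjusted p under 0.05), for 22 of the 32 genes. Of all genes tested, 51.1% passed this test. Values are the brown log2 change minus the white one. In the carnitine shuttle it was 0.44 for Cpt1a, -1.42 for Cpt2 and -1.05 for Slc25a20. Among the acyl-CoA dehydrogenases it was -1.07 for Acadm, 1.09 for Acadl, -0.84 for Acadvl and -1.44 for Acads, so the long-chain gene stood alone in rising more in brown cells. Among the later and auxiliary enzymes it was -0.46 for Hadh, -0.42 for Echs1, -0.64 for Eci2 and -1.02 for Decr1. The dimmer probe set of Decr1 gave 0.51, with the opposite sign. For electron transfer it was 0.24 for Etfa, -0.51 for Etfb and -0.46 for Etfdh, and for the thioesterase Acot1 it was -2.54. Among peroxisomal genes it was -4.27 for Abcd2 and -1.37 for Ehhadh. The Ehhadh value is set by the pseudocount, from -3.60 with 1 to -0.22 with 64 (adjusted p = 0.215), because its white preadipocyte signal was below the 40th percentile on all 3 arrays. Among peroxins it was -0.57 for Pex3, -1.68 for Pex11a, -1.46 for Pex13, -0.38 for Pex14 and -1.46 for Pex19.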

How the results depend on the processing

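Without each array in turn, white differentiation kept 30 genes higher and 1 lower, brown differentiation 27 and 2, the difference between lines 2 to 4 positive and 18 to 20 negative, adipocytes 7 to 8 higher and 11 to 13 lower, and preadipocytes 19 to 22 higher and 3 to 5 lower. Counts of genes called that moved by over 1.5 times were the genes higher in brown adipocytes under quantile normalization (11 in place of 7), those lower in brown preadipocytes with hybridization-control scaling (2 in place of 4), those falling in brown cells with the mean of probe sets (1 in place of 2), and the positive differences between lines with an intensity trend (5 in place of 3) or an adjusted p under 0.01 (1). Signs turned for Acadm between adipocytes (0.23, quantile normalization), Abcd3 in white cells (-0.036, hybridization controls), Etfdh in the difference between lines (0.12, mean of probe sets), Hsd17b4 there (-0.24 with the mean and -0.50 without less specific probe sets), Decr1 between adipocytes (0.058, mean of probe sets) and Hadhb between preadipocytes (0.23 and 0.42 by the same settings as Hsd17b4). The last 6 rest on other probe sets by construction, that of Etfdh on one too dim to be tested by itself. The first 2 rest on the other scaling of the arrays. For Abcd3, the hybridization-control factors averaged 1.05 on the white preadipocyte arrays and 0.872 on the white adipocyte arrays. Over all genes and alternatives, 3693 of 3798 single values kept their call, 60 lost it, 37 gained it and 8 reversed. The replicate numbers did not pair the arrays: deviations from the group means of same-numbered arrays correlated at -0.029 to 0.067 in 18 pairs. With the replicate block, 30 genes rose and 1 fell in white cells, 27 and 2 in brown cells, and Pex14 lost its difference between lines (adjusted p = 0.0795). The planned ratio of Cpt1b to Cpt1a was not run, and a fit of only the arrays compared gives no separate value for the difference between lines, which uses all arrays. Signals near background limit Ehhadh and Abcd2 in white preadipocytes and Acot1 outside brown preadipocytes.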

Other observations

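The 32 genes had 59 probe sets annotated to them alone, 19 genes had several, and 25 of the further probe sets were bright enough to test (limma over 31294 probe sets). In white differentiation 24 of the 25 gave the same call as the probe set that stood for the gene, and in brown differentiation 18 of 25. None was called in the opposite direction in either line. In the difference between lines 18 agreed in their call and 1, of Decr1, was opposite, and between adipocytes 17 agreed and 1, again of Decr1, was opposite. Between preadipocytes 17 agreed and none was opposite.

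By group means, 17 of the 32 genes were highest in white adipocytes, 12 in brown adipocytes, 2 in brown preadipocytes (Acot1 and Pex19) and 1, Cpt1a, in white preadipocytes. White preadipocytes were lowest for 22 genes, brown preadipocytes for 9 and brown adipocytes for Cpt1a. For 27 genes both adipocyte means lay above both preadipocyte means.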
